A study of Glycine max with 10 samples.

Results

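Soybean carries a duplicated pair of STAY-GREEN genes, D1 (Glyma.01G214600.Wm82.a2.v1) and D2 (Glyma.11G027400.Wm82.a2.v1), and a further greenness gene, G (Glyma.01G198500.Wm82.a2.v1). These 3 genes, of 56044 in the deposited count table, were chosen by name from published work on seed and leaf colour, with earlier results of these data known. Their IDs place D1 and G on chromosome 1 and D2 on chromosome 11. All 3 passed the filter on low counts, which left 30226 genes tested.

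STAY-GREEN proteins act at the start of chlorophyll breakdown: they remove the central magnesium from chlorophyll a, an activity shown in Arabidopsis, and they are known for their induction in senescing leaves and ripening seeds. In soybean, plants that lack both D1 and D2 keep green leaves and green cotyledons, while either copy alone is enough for yellowing. G encodes a membrane protein of the CAAX protease family that keeps the mature seed coat green and affects seed dormancy. It is known to interact with phytoene synthase and 9-cis-epoxycarotenoid dioxygenase, enzymes on the route from carotenoids to abscisic acid.

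The libraries came from pods harvested 18 days after flowering from soybean plants grown in the field, with 5 soybeans of high pod shattering force (015, 018, 044, 060 and 071) and 5 of low force (038, 055, 072, 092 and 109). The labels give no genotype, treatment or pod colour. Whether a soybean number stands for 1 plant, several plants or a line is not stated. The tests therefore take the 10 libraries as the replicates, and their spread may in part be technical.

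Library totals ran from 3779756 to 13298201 counts. After TMM scaling (trimmed mean of M-values), the effective depth was 0.922 M counts in low force 055, where 10 genes took 85.8% of the counts, and 4.35 to 20.1 M in the other 9 libraries. Levels are given in CPM, counts scaled to this effective depth, and not per gene length. A count of 0 would allow up to 3 counts, or 3.26 CPM in low force 055 and at most 0.689 CPM elsewhere. SHAT1-5 and NST1A, which encode NAC factors of the pod's secondary walls, were found in every library, at 17.4 to 30.8 and 25.4 to 44.9 CPM. Bulk pod RNA cannot tell more cells of a type from more RNA per cell.

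By the counts assigned to each copy, low force 092 stood far above any other library for both STAY-GREEN genes. The sum of D1 and D2 was at 214.1 CPM in low force 092 and at most 34.7 CPM elsewhere. G stayed within a narrow range in all 10 libraries after TMM scaling. D1 reached 95.2 CPM in low force 092 and D2 reached 118.9 CPM, which is 11.5 and 11.1 times the median of the other 9 libraries. G in that library, at 21.6 CPM, was 0.946 times its median in the others. Outside low force 092, D1 was spread over 3.73-fold, D2 over 2.75-fold and G over 1.79-fold between the lowest and the highest library.

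**Figure D1:**
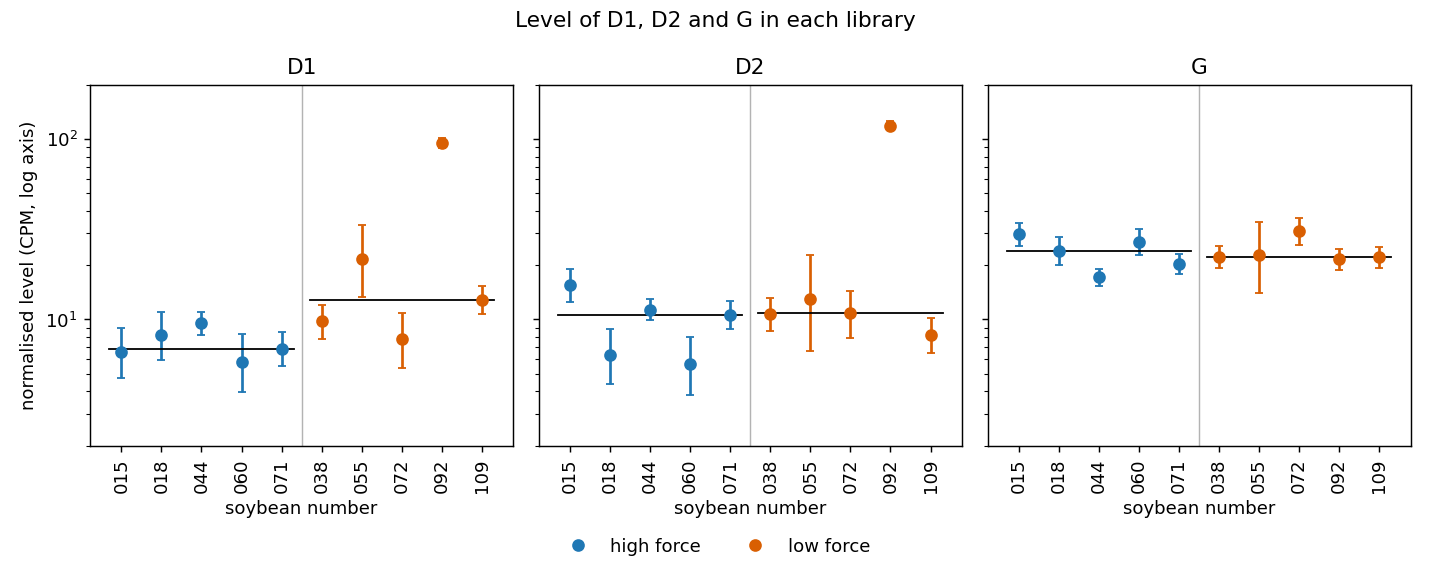
Level of D1, D2 and G in CPM (log axis) in each of the 10 libraries, with 95% Poisson intervals as bars and the median of each force group as a horizontal line. D1 and D2 stand at 95.2 and 118.9 CPM in low force 092 and at no more than 21.7 and 15.5 CPM elsewhere, while G stays between 17.2 and 30.8 CPM.

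D1 in the high force libraries 015, 018, 044, 060 and 071 was at 6.60, 8.24, 9.55, 5.82 and 6.90 CPM, on 40, 44, 192, 31 and 83 counts. In the low force libraries 038, 055, 072, 092 and 109 it was at 9.75, 21.7, 7.81, 95.2 and 12.9 CPM, on 84, 20, 34, 954 and 128 counts. The 4 highest libraries were all of low force, but low force 072 fell among the high force libraries, so the groups overlapped. Low force 038, the last of these 4, was close to high force 044 (9.75 and 9.55 CPM). By CPM of the unscaled library total, high force 044 (14.4) and 018 (11.6) stood above low force 038 (11.4).

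The second place of low force 055 for D1 rests on 20 counts, with a 95% Poisson interval of 13.3 to 33.5 CPM, and on the scaling of that library. In CPM of the unscaled library total, D1 was at 3.06 in low force 055, the lowest of the 10 libraries, and at 110.4 in low force 092, still the highest. The intervals of low force 055 and 109 overlapped (10.8 to 15.3 CPM in 109), and that of low force 092 (89.3 to 101.4 CPM) lay above all others. These intervals cover counting error only.

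D2 in the high force libraries 015, 018, 044, 060 and 071 was at 15.5, 6.37, 11.3, 5.63 and 10.6 CPM, on 94, 34, 228, 30 and 128 counts. In the low force libraries 038, 055, 072, 092 and 109 it was at 10.7, 13.02, 10.8, 118.9 and 8.16 CPM, on 92, 12, 47, 1191 and 81 counts. Apart from low force 092, every low force library lay inside the range of the high force libraries. The highest of the others was high force 015, with a Poisson interval of 12.5 to 19.0 CPM that overlapped those of high force 044 (9.92 to 12.9 CPM) and 071 and of low force 038, 055 (6.73 to 22.7 CPM) and 072.

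G in the high force libraries 015, 018, 044, 060 and 071 was at 29.7, 24.0, 17.2, 27.0 and 20.3 CPM, on 180, 128, 345, 144 and 244 counts. In the low force libraries 038, 055, 072, 092 and 109 it was at 22.3, 22.8, 30.8, 21.6 and 22.3 CPM, on 192, 21, 134, 216 and 221 counts. The highest library (072) and the lowest (044) belonged to different groups, and the groups overlapped across most of their range. The interval of high force 044 (15.4 to 19.1 CPM) lay below that of low force 072 (25.8 to 36.5 CPM), a gap that depends on the scaling. In CPM of the unscaled library total, G was at 25.9 in high force 044 and 26.7 in low force 072, highest in high force 060 at 35.9 and lowest in low force 055 at 3.22.

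The standard deviation of log2 CPM over the 10 libraries was 1.19 for D1, 1.21 for D2 and 0.253 for G, against a median of 0.613 over all tested genes. After TMM scaling, G varied less than most genes: 3.90% of tested genes had a spread as small or smaller. Without low force 092 the standard deviations were 0.568, 0.461 and 0.264, beside a median of 0.540, so D1 and D2 then varied about as much as a typical gene. For G, 9.16% of tested genes then had a spread as small or smaller. Both shares are over tested genes of all levels, and G was not set against genes of its own level.

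Low force 092, picked after its values had been seen, was set against the highest of the other 9 libraries for every tested gene. D1 stood 2.12 above that library on the log2 CPM scale, a gap that 110 genes reached (0.364% of those tested), and D2 stood 2.92 above it, a gap that 21 genes reached (0.0695%). In CPM, D1 was 4.39-fold above low force 055 and 7.38-fold above low force 109, the next library after it, and D2 was 7.66-fold above high force 015. G (Glyma.01G198500.Wm82.a2.v1) stood at -0.51 relative to the highest other library on the same scale. Low force 092 had the highest value of all libraries for 7142 genes (23.6% of those tested), more than any other library, followed by low force 055 with 5100 genes. Genes at least 4-fold above the next library were fewer in low force 092 (133) than in low force 055 (201).

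**Figure D2:**
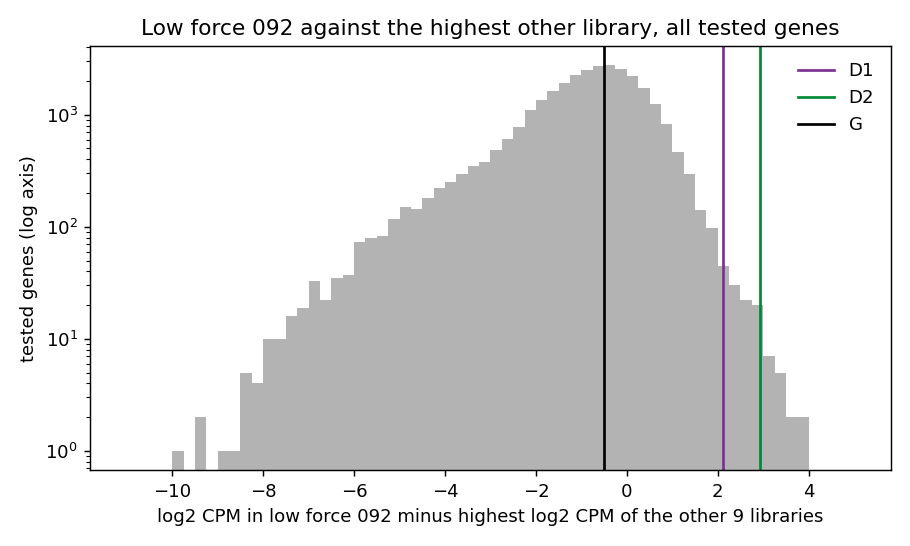
Number of tested genes (log axis) by the log2 CPM of low force 092 minus the highest log2 CPM of the other 9 libraries, in bins of equal width, with lines at D1, D2 and G. D1 at 2.12 and D2 at 2.92 lie in the right tail, where 0.364% and 0.0695% of tested genes reach as far, while G lies in the bulk. Low force 092 was picked after its values had been seen.

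Genes next to D1 and D2 did not share their peak in low force 092. Of the 10 tested genes that flank each of them in ID order, 5 on each side, 0 had their highest level in low force 092. Their levels there were 0.399 to 1.45 times the median of the other libraries around D1 and 0.259 to 1.34 times around D2. Around G, 2 of the 10 flanking genes were highest in low force 092, one of them at 4.73 times the median of the others. Of all tested genes, 23.6% were highest in low force 092, and these counts of 10 were not tested against that share.

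Other features of low force 092 are given beside this result, and their part in it was not tested. Its total of 8638848 counts and effective depth of 10.02 M counts were each the third highest of the 10, and 37611 genes had a count, the fewest after low force 055. LHY1a, a morning gene of the circadian clock, was at 11.8 CPM, the lowest of the 10 libraries, and SHAT1-5 at 30.8 CPM, the highest. Gy1, which encodes the seed storage protein glycinin, was at 40.5 CPM, against 0.299 to 65.3 CPM in 8 of the others and 5571 CPM in low force 109. Low force 109, the library rich in Gy1, had D1 at 12.9 and D2 at 8.16 CPM.

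The counts assigned to both copies were nearly equal in number on average. The D1 share of the counts of D1 and D2 was 48.0 ± 10.1% (SD, n = 10), on 32 counts in low force 055 and 61 to 2145 in the other libraries. This is a share of counts and not of transcripts, since gene lengths were not used. The sources do not say how reads that match both copies were counted, so the separate levels of D1 and D2 are uncertain, and their sum is given beside them.

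In the high force libraries 015, 018, 044, 060 and 071 the D1 share was 29.9, 56.4, 45.7, 50.8 and 39.3%. In the low force libraries 038, 055, 072, 092 and 109 it was 47.7, 62.5, 42.0, 44.5 and 61.2%. Low force 109 was the only library whose exact 95% Clopper-Pearson interval (54.3 to 67.9%) lay above 50%. High force 015 (22.3 to 38.4%), high force 071 (32.7 to 46.3%) and low force 092 (42.4 to 46.6%) lay below 50%, and the intervals of the other 6 libraries included it. In low force 092 the counts assigned to D1 and D2 were 954 and 1191, a share inside the range of the other libraries.

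**Figure D3:**
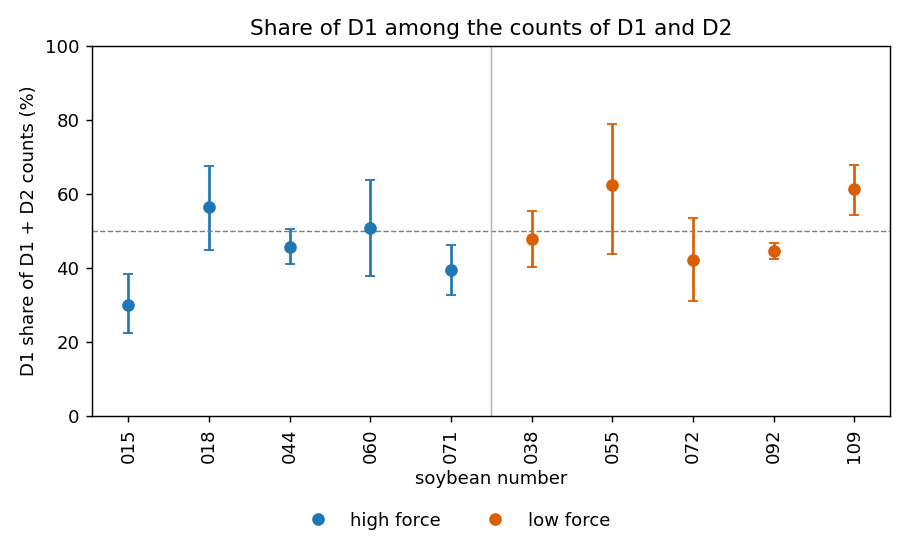
Share of D1 in the summed counts of D1 and D2, in percent, for each library, with exact 95% Clopper-Pearson intervals as bars and a dashed line at 50%. The share runs from 29.9% in high force 015 to 62.5% in low force 055, and low force 092, at 44.5%, has the narrowest interval.

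The share did not separate the force groups. It was 44.4 ± 10.3% in high force and 51.6 ± 9.62% in low force (SD, n = 5 each). The log2 ratio of D1 to D2, which is free of library size, was -0.34 in high force and 0.092 in low force on average, a difference of -0.43 that did not pass (two-sided exact permutation test, p = 0.286). The difference was -0.21 without high force 015, -0.27 without low force 055 and -0.29 without low force 109 (exact permutation p = 0.548, 0.492 and 0.484).

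The comparison of the force groups asks which genes differ with pod dehiscence. D1 was at 7.42 ± 1.48 CPM in high force and 29.5 ± 37.1 CPM in low force (SD, n = 5 each), and without low force 092 at 13.04 ± 6.14 CPM in low force (SD, n = 4). The log2 fold change, high minus low force, was -1.998 (SE 0.63, 95% interval -3.37 to -0.63). It did not pass edgeR's quasi-likelihood test over all genes tested (unadjusted p = 0.00778, adjusted p = 0.796, rank 271). Without low force 092 it was -0.73 (SE 0.31, edgeR unadjusted p = 0.0391, adjusted p = 1).

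Taken by itself, the mean log2 CPM of D1 differed between the groups by -1.30, high minus low force, a smaller difference than edgeR's fold change. It passed the two-sided exact permutation test (p = 0.0317, where 0.00794 is the smallest possible), and still without low force 092 (exact permutation p = 0.0476). This p is for 1 of 5 such comparisons (D1, D2, G, their pair's sum and ratio) and is not adjusted. With library size only, which rescales every library, the exact permutation p was 0.722, and without low force 055 under TMM scaling it was 0.0317. It rose above 0.05 when any of the high force libraries was left out, to between 0.0556 without 044 and 0.103 without 060.

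D2 was at 9.90 ± 4.03 CPM in high force and 32.3 ± 48.4 CPM in low force (SD, n = 5 each), a log2 fold change of -1.73 (SE 0.73, 95% interval -3.31 to -0.14). The mean log2 CPM of D2 differed by -0.87, high minus low force. Neither edgeR's quasi-likelihood test of the fold change (unadjusted p = 0.0348, adjusted p = 0.796) nor the two-sided exact permutation test of mean log2 CPM (p = 0.278) passed. Without low force 092 the low force mean was 10.7 ± 1.99 CPM (SD, n = 4) and the log2 fold change -0.070 (SE 0.32), so the difference in D2 rested on that 1 library. The sum of both copies had a log2 fold change of -1.84 (SE 0.66, edgeR adjusted p = 0.796), and -0.41 (SE 0.27) without low force 092. With all 10 libraries, its mean log2 CPM differed by -1.08 (exact permutation p = 0.0873).

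G was at 23.6 ± 5.04 CPM in high force and 23.9 ± 3.86 CPM in low force (SD, n = 5 each). The log2 fold change was -0.022 (SE 0.22, edgeR adjusted p = 0.992; exact permutation p = 0.849), with a 95% interval of -0.50 to 0.46 that leaves room for a difference of that size in either direction. Its sign is not determined: it turned to 0.53 with library size only, beside a median of 0.54 over all genes in that setting, and to 0.088 without low force 072.

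**Figure D4:**
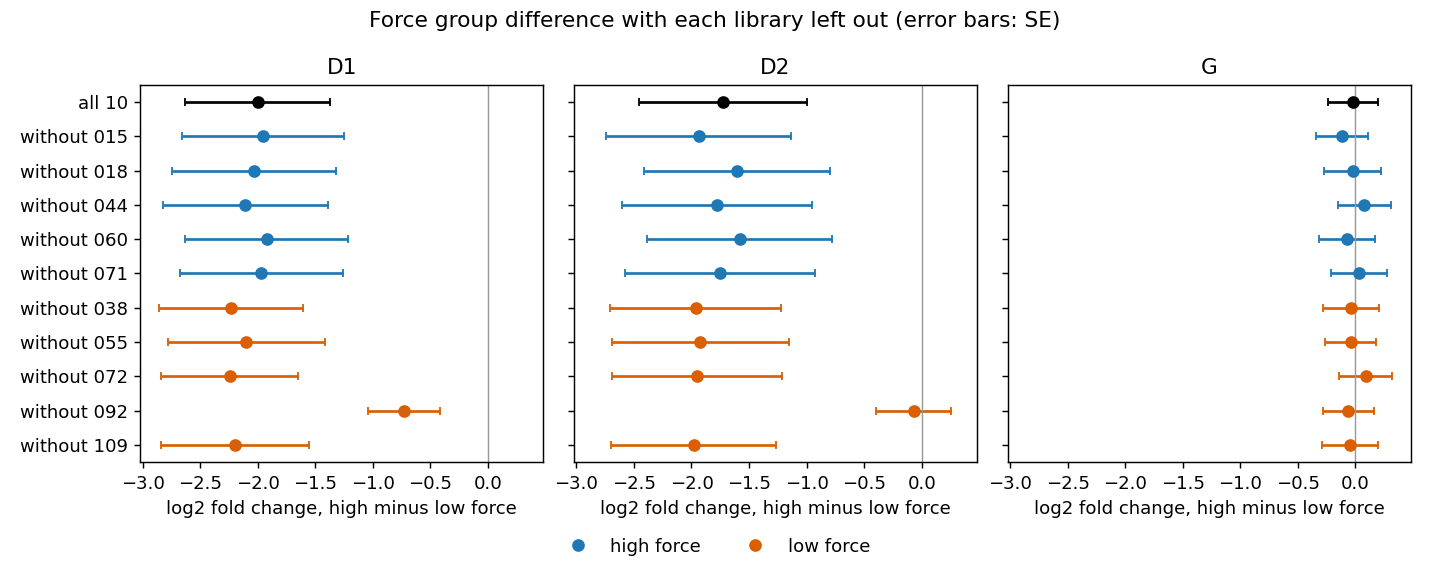
Log2 fold change, high minus low force, of D1, D2 and G from edgeR with all 10 libraries and with each library left out in turn, with standard errors as bars. Leaving out low force 092 moves D1 from -1.998 to -0.73 and D2 from -1.73 to -0.070, while G stays between -0.12 and 0.088.

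After adjustment over all genes, edgeR's quasi-likelihood test called 0 of the 3 genes and 0 of all 30226 tested (0%), while DESeq2 called 25 and limma-voom 0. At unadjusted p under 0.05 edgeR had 1893 genes. D1 and D2 were among those lower in high force at that level, which held 1146 genes (3.79% of those tested). The groups did not overlap for 0 of the 3 genes, against 298 of all tested genes (0.986%). DESeq2 gave D1 a log2 fold change of -2.02 (adjusted p = 0.222) and gave no p for D2, which it leaves out where 1 library departs too far from the fit.

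D1, D2 and G overlapped between libraries split by their level of LHY1a, the only clock gene used for this split. High force 015 and low force 055 and 072 had LHY1a at 646.7 to 1041 CPM, against 11.8 to 19.3 CPM in the other 7 libraries. In the libraries with high LHY1a, D1 ranged from 6.60 to 21.7 CPM, D2 from 10.8 to 15.5 CPM and G from 22.8 to 30.8 CPM. In the other 7, D1 ranged from 5.82 to 95.2 CPM, D2 from 5.63 to 118.9 CPM and G from 17.2 to 27.0 CPM. The overlap of G came from low force 055, at 22.8 CPM on 21 counts. Low force 072 and high force 015, at 30.8 and 29.7 CPM, stood above all other libraries for G. That order depends on the scaling, since in CPM of the unscaled library total high force 060 was highest, at 35.9. Without the 3 libraries with high LHY1a the log2 fold changes were -2.36 (SE 0.71) for D1, -2.41 (SE 0.84) for D2 and -0.0017 (SE 0.22) for G (edgeR adjusted p = 0.411, 0.424 and 0.998). The low force libraries left there were 038, 092 and 109, with D1 at 9.75, 95.2 and 12.9 CPM and D2 at 10.7, 118.9 and 8.16 CPM. The values for D1 and D2 therefore cannot be read apart from low force 092, and no fit left it out as well. The 3 libraries with high LHY1a hold 1 of high force, too few for a value of their own.

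The relation between D1 and D2 rested on low force 092. Across 10 libraries their log2 CPM had a Pearson r of 0.879 (permutation p = 0.0236, adjusted 0.0708 over 3 pairs) and a Spearman rho of 0.430 (permutation p = 0.221, adjusted 0.332). Without low force 055 and 092, the libraries farthest from the median of D1, r was 0.035 and rho 0.048 (n = 8), and without low force 092 alone they were 0.283 and 0.217 (n = 9), so the relation does not hold without them. G had a Pearson r of -0.302 with D1 and -0.166 with D2 (permutation p = 0.393 and 0.616, adjusted 0.590 and 0.616) and a Spearman rho of -0.467 and -0.115 (permutation p = 0.177 and 0.759, adjusted 0.332 and 0.759). The r with D1 was -0.477 without low force 055 and 092. The r with D2 was 0.191 without high force 060 and low force 092, the libraries farthest from the median of D2.

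Neither copy was the gene most like the other. Among 30225 other tested genes ranked by Pearson r of log2 CPM over the 10 libraries, D2 ranked 149 for D1, and D1 ranked 111 for D2. The gene most like D1 was Glyma.17G230700 (r = 0.980), at 1215 CPM in low force 092 and 118.7 to 364.6 CPM elsewhere, followed by Glyma.02G244100 (r = 0.979). For D2 they were Glyma.14G035600 (r = 0.966), at 25.1 CPM in low force 092 and 2.07 to 6.27 CPM elsewhere, and Glyma.01G136000 (r = 0.952). The genes most like G were Glyma.04G111900 (r = 0.943), which was highest in low force 072 as G was, and Glyma.20G224400 (r = 0.918), highest in high force 015. Without low force 092 the r of the first and second gene was 0.922 and 0.893 for D1, 0.824 and 0.605 for D2, and 0.941 and 0.946 for G. These 6 genes have no annotation in the sources used here.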

How the data were processed

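The deposited table holds whole-number counts, not normalised by the authors, of 56044 genes in 10 pod libraries (TruSeq RNA, per the labels' protocols). Tools named in the submitters' processing notes, without their order or settings, are featureCounts, edgeR, TopHat2, Trim Galore 0.4.4 and Subread 1.6.2. Of the genome build the IDs give Wm82.a2.v1. Strand and multi-mapped reads are not given in the sources used here.

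From the counts, filterByExpr left 30226 genes, scaled by TMM and tested 5 against 5 with edgeR 4.0.16 (quasi-likelihood, R 4.3.3), with Benjamini-Hochberg adjustment over all genes (threshold 0.05, two-sided). Each SE was obtained from the log2 fold change and its F value. The log2 CPM used a prior count of 2 and the D1 to D2 ratio a pseudocount of 0.5. The groups share no soybean number, so nothing was paired. Alternatives were other scaling and filters, DESeq2 1.42.0, limma-voom (limma 3.58.1) and leaving out libraries. All pairs of libraries differed by more than sampling noise (chi-square per degree of freedom at least 9.97).

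The genes were chosen with earlier results of these data known, and the comparison of low force 092 with the other libraries and of flanking genes after its values had been seen. Named genes were the 3 members and, by rule, the 2 genes most like each. The names D1, D2, G, LHY1a, Gy1, SHAT1-5 and NST1A were paired with IDs from published work as recalled. A RefSeq gene table of another assembly lists SGR1 (also D2), SGR2, SGR and G but matched 0 of the IDs. Lists of other chlorophyll breakdown, light-harvesting and abscisic acid genes, which needed gene descriptions, and sequences of D1, D2 and G were therefore not used here.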

Additional observations from a re-analysis of the deposited data

Results flagged for a closer look

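The log2 CPM of D1, D2, G and the sum of D1 and D2, and the D1 to D2 log2 ratio, were searched within each force group for a library far from the other 4, a total of 10 sets of values. The search picked a library in 3 of these sets. By its construction it picks about 1 in 20 independent sets by chance, but these sets share libraries and counts, so 3 of 10 cannot be read against that rate. Low force 092 stood apart for D2, at a log2 CPM of 6.90 with the next library at 3.73, and for the sum of D1 and D2, at 7.74 with the next at 5.13. The sum contains D2, so it is not a separate finding. D1 alone was not picked in low force 092, since low force 055 lay between it and the rest. Low force 072 stood apart for G, at 4.96 with the next library at 4.53. That gap is small in size and was measured against 4 libraries that lay close together, and high force 015, at 4.90, was near it.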

How the results depend on the processing

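For D1, D2 and their sum, the log2 fold change kept its negative sign under all 17 other settings, between -2.36 and -0.73 for D1, -2.41 and -0.070 for D2 and -2.39 and -0.41 for the sum, and no setting that gave an adjusted p brought it under 0.05. The largest move came from leaving out low force 092, and limma-voom gave -1.30 for D1 and -0.94 for D2. DESeq2 gave no p for D2 or the sum. The sign of G turned in 5 of 17 settings, to 0.53 with library size only and to 0.00027 with no filter, and its values with each library left out ran from -0.12 to 0.088. The D1 to D2 difference kept its sign in 13 of 13 settings, none passing. In percent of counts it was -7.16, and it was -0.18 on the log2 scale without the 3 libraries with high LHY, where 4 against 3 libraries give an exact permutation p of 0.6.

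The number of genes called was 0 in the main analysis, 62 with library size only (36 higher and 26 lower in high force, where the median of all genes was 0.54), 25 with DESeq2, 2 without the 3 libraries with high LHY, and 0 to 1 with each library left out. The other scaling, filters and limma-voom gave 0. Depth limits low force 055 most, where D1, D2 and G had 20, 12 and 21 counts.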
